A study of Mus musculus with 20 samples.

Results

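Prr15, Tspan8 and Olfr78 are 3 of the 18193 mouse genes measured on Affymetrix Mouse Genome 430 2.0 arrays in a study of MYCN transgenic mice, a model of the childhood tumor neuroblastoma. The genes were chosen by their measured values: they were bright in ganglia of wild-type mice and nearly absent in tumors. Their levels in those groups therefore describe the choice and are given with no test. The arrays carried 3 probe sets for Prr15, 5 for Tspan8 and 4 for Olfr78, 12 in all of the 34945 probe sets with a single gene symbol. A probe set is a group of short probes read together, and each gene was represented by its brightest probe set over all arrays.

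The study held 20 arrays in 7 groups. Wild-type mice on the 129+Ter/SvJcl background gave 4 ganglion samples and 2 neurosphere cultures, which are floating cultures grown as spheres. Mice on a mixed 129+Ter/SvJcl background carried the MYCN transgene. Those homozygous for it gave 2 ganglion samples and 4 tumors, and homozygous mice that also carried a knockout of Mdk, the gene for the growth factor midkine, gave 2 tumors. Hemizygous mice gave 4 tumors and 2 tumorsphere cultures, the sphere cultures of tumor cells. The labels do not give the promoter that drives the transgene, the ages of the mice, the ganglion taken, or whether the arrays within a group stand for different animals, so every p-value measures the spread between these samples. Background (mixed or not) and transgene cannot be told apart in any comparison with wild-type samples.

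The 3 genes have different roles. Prr15 encodes a small proline-rich protein described in cells that have left the cell cycle, in the gut and other developing tissues. Tspan8 encodes a tetraspanin, a membrane protein that crosses the membrane several times and gathers integrins and other surface proteins into membrane domains; it is best known from the epithelium of the gut and from carcinomas. Olfr78 encodes an odorant receptor that also acts outside the nose, where it responds to short-chain fatty acids and has been tied to oxygen sensing in glomus cells of the carotid body; it has also been described in ganglia of the autonomic nervous system. Sympathetic ganglia hold neurons, the satellite glia around them, Schwann cells of the axons, and connective tissue. In bulk RNA from such tissue, fewer cells of a type and less RNA per cell cannot be told apart.

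The sequence just upstream of a gene's start is shown as a description. The 3 genes were chosen for being low in the same tumors, and a shared regulation was not tested. Promoters of Prr15 and Tspan8 were taken from RefSeq (mouse build GRCm38.p6, plus strand for both), 250 bases up to the base before the listed start. These are chr6:54326651-54326900 for Prr15 and chr10:115817034-115817283 for Tspan8. Olfr78 is named only. Capitals mark matches to CANNTG, the E-box that MYC proteins and many other basic helix-loop-helix factors bind, or to GATA read on both strands (GATA or TATC).
Prr15: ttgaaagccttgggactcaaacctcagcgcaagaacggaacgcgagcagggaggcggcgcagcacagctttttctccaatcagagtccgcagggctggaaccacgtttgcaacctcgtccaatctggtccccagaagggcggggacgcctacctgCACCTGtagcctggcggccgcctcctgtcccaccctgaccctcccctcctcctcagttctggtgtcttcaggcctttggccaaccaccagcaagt
Tspan8: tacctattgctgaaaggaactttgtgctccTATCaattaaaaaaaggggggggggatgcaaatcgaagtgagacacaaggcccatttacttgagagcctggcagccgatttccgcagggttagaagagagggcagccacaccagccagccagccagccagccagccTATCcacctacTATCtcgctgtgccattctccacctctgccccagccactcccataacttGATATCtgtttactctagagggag
The Prr15 window held 1 CANNTG match, CACCTG, 95 bases before the start, and no GATA. The Tspan8 window held no CANNTG and 5 GATA matches, of which 1 pair overlaps in GATATC. Neither window held CACGTG, the E-box form that MYC proteins prefer, or TAATTA. Of 32851 mouse promoter windows of this length, 66.2% held CANNTG, 6.02% CACGTG, 53.6% GATA and 4.84% TAATTA, and 1.2% held 5 or more GATA matches. The GC content was 61.6% for Prr15 and 52.4% for Tspan8, and the median over all windows was 52.4%. The cut of 5 GATA matches equals the count in the Tspan8 window. A match is a stretch of letters and not a site of binding.

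All values below are intensities on the authors' linear scale, on which each array has a trimmed mean of 100. The 40th percentile of an array, used here as the level under which a gene counts as dim, lay between 8.57 and 15.8. The level of a probe set says nothing of the level of another, so each gene is compared with itself across groups.

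The 4 wild-type ganglia fell into pairs by what else they held. Markers of skeletal muscle summed to 6438 and 5415 on ganglia 1 and 2 and to 79.1 and 47.8 on ganglia 3 and 4, and plasma proteins of the liver to 4572 and 1288 against 161 and 105. Macrophage markers summed to 1865 and 1906 against 775 and 839. Sympathetic neuron markers went the other way, with 33901 and 27970.2 against 60545 and 50362. The 2 homozygous ganglia also differed in muscle markers, with 90.3 and 7402. Results that rest on the wild-type ganglia are therefore given with each pair where the pair changes them, and the part of this tissue content was not tested.

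Prr15 was read by 1452473_at. In wild-type ganglia it measured 916, 752, 2864 and 2729.65 on replicates 1 to 4. The 2 ganglia of homozygous mice gave 473 and 601, below all 4 wild-type ganglia. The 4 homozygous tumors gave 20.6, 31.2, 17.0 and 28.3, and the 2 tumors with the Mdk knockout gave 12.0 and 22.0. Each of these 6 tumors lay at or under 1.72% of the wild-type mean, and their groups overlapped each other. The 4 hemizygous tumors gave 5.72, 14.0, 2.66 and 1.34, below every homozygous tumor, and only 1 of the 4 exceeded its array's 40th percentile. The 2 neurosphere cultures gave 56.0 and 17.4 and the 2 tumorsphere cultures 1.40 and 0.961. Over all 10 tumors Prr15 ranged from 1.34 to 31.2, and the wild-type mean of 1815 ± 1137 (SD, n = 4) stood against a tumor mean of 15.5 ± 10.3 (SD, n = 10). With the 3 tumors under the 40th percentile of their arrays set to that level, the tumor mean was 17.9. The mean of all 4 wild-type ganglia was at least 101-fold higher. The fold depends on the pair, since ganglia 1 and 2 averaged 834 and ganglia 3 and 4 averaged 2797. The order of the means ran from wild-type ganglia through homozygous ganglia, neurospheres, homozygous tumors, Mdk knockout tumors and hemizygous tumors to tumorspheres. In that order neurospheres, homozygous tumors and Mdk knockout tumors overlapped as neighbours, as did Mdk knockout and hemizygous tumors, and hemizygous tumors and tumorspheres.

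Tspan8 was read by 1424649_a_at. The 4 wild-type ganglia gave 2463, 2506, 1616 and 2341, and the 2 homozygous ganglia gave 1389 and 1543. The homozygous ganglia were again lower than each wild-type ganglion, but at 62.3% to 69.2% of the wild-type mean. Homozygous tumors gave 39.4, 97.9, 20.3 and 35.0, Mdk knockout tumors 17.7 and 68.1, and hemizygous tumors 11.0, 28.2, 11.8 and 14.0. These 3 tumor groups overlapped, and each tumor exceeded its array's 40th percentile. The sphere cultures were dimmer, with 1.64 and 14.8 in neurospheres and 0.822 and 4.48 in tumorspheres, and the ranges of these cultures overlapped. The wild-type mean of 2231 ± 416 (SD, n = 4) was 65.0 times the mean over the 10 tumors, 34.3 ± 28.3 (SD, n = 10). Ordered by their means, the groups ran from wild-type ganglia, homozygous ganglia, homozygous tumors, Mdk knockout tumors and hemizygous tumors to neurospheres and tumorspheres, with each neighbouring pair from homozygous tumors downward overlapping.

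Olfr78 was read by 1440009_at. It measured 896, 790.2, 1151 and 961 in wild-type ganglia and 368 and 571 in homozygous ganglia, 38.7% to 60.1% of the wild-type mean. Homozygous tumors gave 15.2, 24.3, 20.1 and 18.9 and Mdk knockout tumors 9.37 and 6.69, the latter under the 40th percentile of both arrays. Hemizygous tumors gave 26.0, 113, 37.0 and 67.8, each above the highest homozygous tumor. Hemizygous tumor 2, the highest of all tumors for Olfr78, reached 11.9% of the wild-type mean. Neurospheres gave 5.66 and 1.06 and tumorspheres 3.37 and 7.12, all 4 under the 40th percentile. The wild-type mean of 949 ± 152 (SD, n = 4) stood against a mean of 33.8 ± 32.7 (SD, n = 10) over the 10 tumors, and was at least 27.6-fold higher with the 2 dim tumors set to the 40th percentile. The order of the means differed from that of the other genes in that hemizygous tumors stood above homozygous tumors, followed by Mdk knockout tumors, tumorspheres and neurospheres; the 2 kinds of culture overlapped, and the higher tumorsphere also lay between the 2 Mdk knockout tumors.

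**Figure D1:**
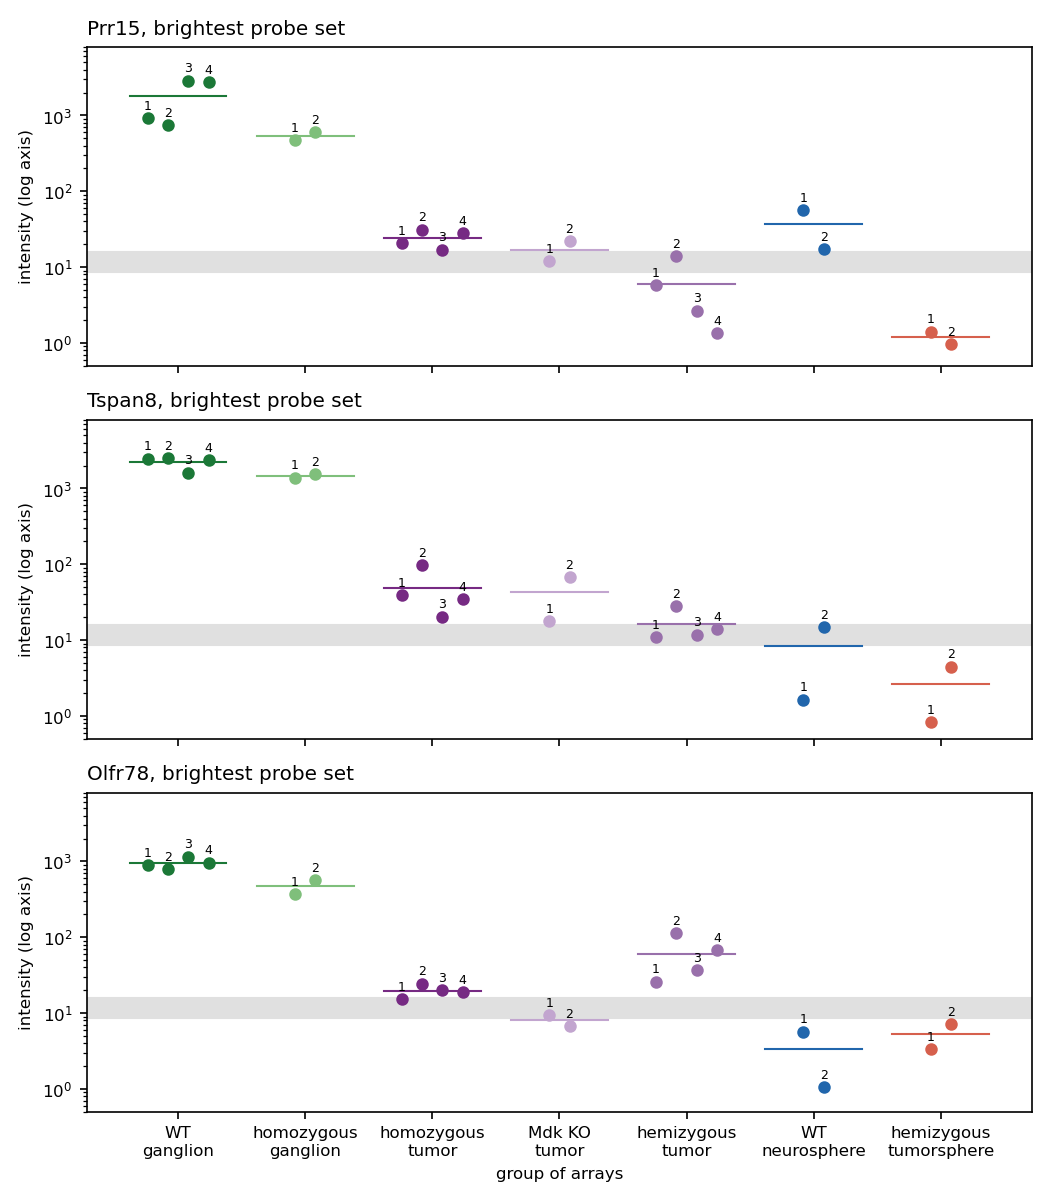
Intensity of the brightest probe set of Prr15, Tspan8 and Olfr78 on each of the 20 arrays (log axis), 1 numbered point per array, with a line at each group mean and a grey band over the range of the arrays' 40th percentiles (8.57 to 15.8). All 6 ganglion arrays lie above all 10 tumors and all 4 sphere cultures for each gene, and Olfr78 is higher in the hemizygous than in the homozygous tumors.

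On the log2(intensity + 16) scale, which understates the change of dim genes, the difference of homozygous tumors from wild-type ganglia was -5.27 for Prr15, -5.24 for Tspan8 and -4.75 for Olfr78. These were the 2nd, 3rd and 5th lowest of the 15140 genes tested. Hemizygous tumors differed from the same wild-type ganglia by -6.17, -6.13 and -3.77, which ranked 4th, 5th and 77th. Mdk knockout tumors differed from them by -5.56, -5.38 and -5.32, which ranked 2nd, 3rd and 4th. The 3 comparisons share the 4 wild-type arrays and were used to pick the genes, so the ranks are descriptions. Across all genes tested, 26.7% were called lower and 23.2% higher in homozygous tumors than in wild-type ganglia at an adjusted p under 0.05 (limma, Benjamini-Hochberg adjustment), and 25.7% and 27% in hemizygous tumors.

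Other probe sets of Tspan8 and Olfr78 also read higher in every wild-type ganglion than in every tumor, but many tumors were too dim on them to give more than a bound. The genes were chosen on this contrast, so these readings are descriptions too. For Tspan8, 1420017_at gave 219.7 to 456 in wild-type ganglia, 129.8 and 130.4 in homozygous ganglia and 4.83 to 18.2 in the 10 tumors, of which 5 were under the 40th percentile of their arrays. With dim tumors set to that percentile, the wild-type mean was at least 23.5-fold higher there. The bound was 11.6-fold for 1420018_s_at and 2.78-fold for 1455709_at, where all 10 tumors were dim, and 10.5-fold for 1420019_at, where 8 were. These bounds use all 4 wild-type ganglia. On 1420018_s_at ganglia 1 and 2 averaged 66.3 and ganglia 3 and 4 averaged 192, and on 1420019_at 48.7 and 190. The suffix of 1420018_s_at marks probes that can match several transcripts, and that of 1424649_a_at probes that match several transcripts of 1 gene. For Olfr78 the bound was 5.67-fold for 1421506_at, which gave 77.7 to 124 in wild-type ganglia and was dim in 4 tumors, and 4.94-fold for 1421507_at, which gave 45.3 to 61.3 there and was dim in all 10. Prr15 had no further probe set of use: 1431301_at gave 4.43 to 20.8 in wild-type ganglia against 0.275 to 7.04 in tumors, and 1432613_at was at or under 9.79 on every array. The fourth probe set of Olfr78, 1453535_at, was at or under 14.0 on every array.

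**Figure D2:**
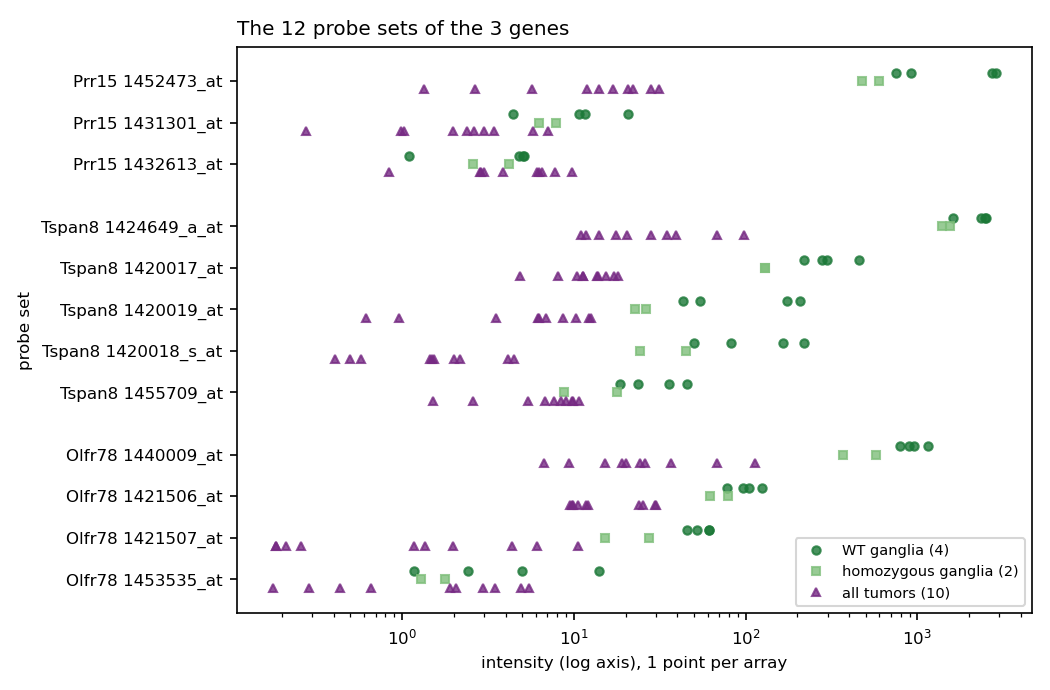
Intensity of the 12 probe sets of the 3 genes (log axis), 1 point per array, in wild-type ganglia (circles), homozygous ganglia (squares) and the 10 tumors of all genotypes (triangles). For 9 of the 12 probe sets every wild-type ganglion lies above every tumor, and the exceptions are the dim probe sets 1431301_at, 1432613_at and 1453535_at. The genes were chosen on this contrast, and the share over all probe sets was not counted.

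The ganglia of homozygous mice were not used to choose the genes, so they allow a test, although the wild-type side was picked for being bright, which favours a lower value in any other group. The difference of homozygous from wild-type ganglia was -1.49 for Prr15 (SE 0.45, 95% interval -2.42 to -0.55, adjusted p = 0.062), and it did not pass. It was -1.01 for Olfr78 (SE 0.32, interval -1.69 to -0.34, adjusted p = 0.078) and -0.58 for Tspan8 (SE 0.39, interval -1.41 to 0.24, adjusted p = 0.4, all limma). None of the 3 was called. Both homozygous ganglia lay below all 4 wild-type ganglia for each gene, an order that the choice of bright wild-type ganglia favours. The share of all genes with this order was not counted. Over all genes tested, 1.06% were called lower and 4.02% higher in this comparison.

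The result for Prr15 in this comparison depended on which wild-type ganglia served as controls. Wild-type ganglia 1 and 2 averaged 834 and ganglia 3 and 4 averaged 2797, a ratio of 3.35. Against ganglia 1 and 2 alone the difference was -0.62 (adjusted p = 0.39), and against ganglia 3 and 4 alone it was -2.35 (adjusted p = 3.9e-05, limma). Without wild-type ganglion 1 it was -1.73 (adjusted p = 0.025) and without ganglion 2 it was -1.82 (adjusted p = 0.0074). Notch2, a receptor of the Notch pathway, split the same 4 arrays, with 169 and 195 on ganglia 1 and 2 and 924 and 911 on ganglia 3 and 4. For the main Tspan8 probe set the ratio of ganglia 3 and 4 over 1 and 2 was 0.796, while for the Tspan8 probe sets 1420018_s_at and 1420019_at it was 2.9 and 3.91. For Olfr78 the ratio was 1.25. Against ganglia 1 and 2 alone Olfr78 differed by -0.854 (adjusted p = 0.28), and against ganglia 3 and 4 alone by -1.17 (adjusted p = 0.021). Without wild-type ganglion 2 it differed by -1.09 (adjusted p = 0.038, limma). Without ganglion 1, 3 or 4 it differed by -1.04, -0.917 and -1 (adjusted p = 0.072, 0.18 and 0.14, limma).

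The probe sets of a gene did not give the same call here. With every probe set as a row, 0.862% of 34927 probe sets were called lower in homozygous than in wild-type ganglia. Of the 5 Tspan8 probe sets, 3 were called lower: 1420017_at by -1.13 (adjusted p = 0.0087), 1420018_s_at by -1.39 (adjusted p = 0.022) and 1420019_at by -1.50 (adjusted p = 0.034, limma). The brightest, 1424649_a_at, and 1455709_at were not, with adjusted p of 0.42 and 0.13. The 3 called probe sets are annotated to the same sequence record, so they are not independent readings. For Olfr78, 1421507_at was called lower by -0.94 (adjusted p = 0.0078, limma), and 1421506_at (-0.43, adjusted p = 0.42) and 1440009_at were not. The choice of bright wild-type ganglia favours lower values here too. All 10 tumors and every culture were dim on 1420018_s_at and 1421507_at, so these probe sets passed the filter through the ganglia alone.

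Between tumors of the 2 genotypes, Olfr78 was the 1 of the 3 genes that was called. It was higher in hemizygous than in homozygous tumors by 0.98 (SE 0.26, interval 0.43 to 1.53, adjusted p = 0.033, limma), and the 4 arrays of each group did not overlap. In this comparison 3.5% of all genes tested were called higher and 2.75% lower. The difference for Prr15 was -0.90 (SE 0.36, interval -1.66 to -0.13, adjusted p = 0.16, limma), with no overlap of the groups. That for Tspan8 was -0.89 (SE 0.32, interval -1.56 to -0.21, adjusted p = 0.11, limma), with overlap, and neither passed. The share of all genes without overlap of these groups was not counted. The tumors of both groups were picked as low in these genes, so the range within them is narrow. The Olfr78 call rested on several arrays: without any 1 of the 4 homozygous tumors, or without hemizygous tumor 2 or 4, the difference lay between 0.687 and 1.04 with adjusted p from 0.06 to 0.11. The call was also lost with a pseudocount of 1 or 64 in place of 16 (adjusted p = 0.073 and 0.08) and with the mean over its probe sets (adjusted p = 0.14, limma). The probe sets 1421506_at and 1421507_at differed in the same direction, by 0.37 (adjusted p = 0.44) and 0.31 (adjusted p = 0.31).

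Loss of Mdk was compared among homozygous tumors. The Mdk probe set read 42.6 and 35.5 in the 2 knockout tumors and 268 to 297 in the 4 homozygous tumors, as the labels say. Mdk was itself the 1 gene called in this comparison, 0.00661% of those tested, and 202 genes had an unadjusted p under 0.05. The difference was -0.29 for Prr15 (interval -1.23 to 0.65), -0.14 for Tspan8 (interval -0.96 to 0.69) and -0.57 for Olfr78 (interval -1.24 to 0.11), each with adjusted p = 1 (limma). For Olfr78 both knockout tumors lay below all 4 homozygous tumors. The share of all genes with this order was not counted. With 2 knockout tumors the intervals reach almost 1 log2 unit or more on the lower side for each gene, so a change of that size could not be told from none.

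In culture, Prr15 was lower in hemizygous tumorspheres than in wild-type neurospheres by a difference of -1.51 (SE 0.51, interval -2.59 to -0.43, adjusted p = 0.026, limma). Both neurospheres lay above both tumorspheres, and the share of all genes with this order was not counted. In this comparison 14.9% of all genes tested were called lower and 23.5% higher, with a median difference of 0.11. The call was lost without neurosphere 1, at -0.958 (adjusted p = 0.27), without tumorsphere 1, at -1.53 (adjusted p = 0.091), and without tumorsphere 2, at -1.49 (adjusted p = 0.1), where the lone culture left was assumed to vary like the other groups. The difference itself hardly moved without either tumorsphere. The call was also lost with a pseudocount of 64, at -0.6 (adjusted p = 0.34). The neurosphere values of 56.0 and 17.4 are both low beside the 473 to 2864 of the ganglia. The cultures also differed in cell type markers: those of sympathetic neurons summed to 303 to 561 in neurospheres and 14856 to 15038 in tumorspheres. Neurospheres 1 and 2 differed from each other as well, with Ttr, a plasma protein of the liver, at 7007 and 4.27. The part of these differences in the result was not tested. Tspan8 and Olfr78 were at or near the dim level in all 4 cultures, and their differences of -0.33 (interval -1.28 to 0.62, adjusted p = 0.62) and 0.14 (interval -0.64 to 0.92, adjusted p = 0.81) did not pass.

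**Figure D3:**
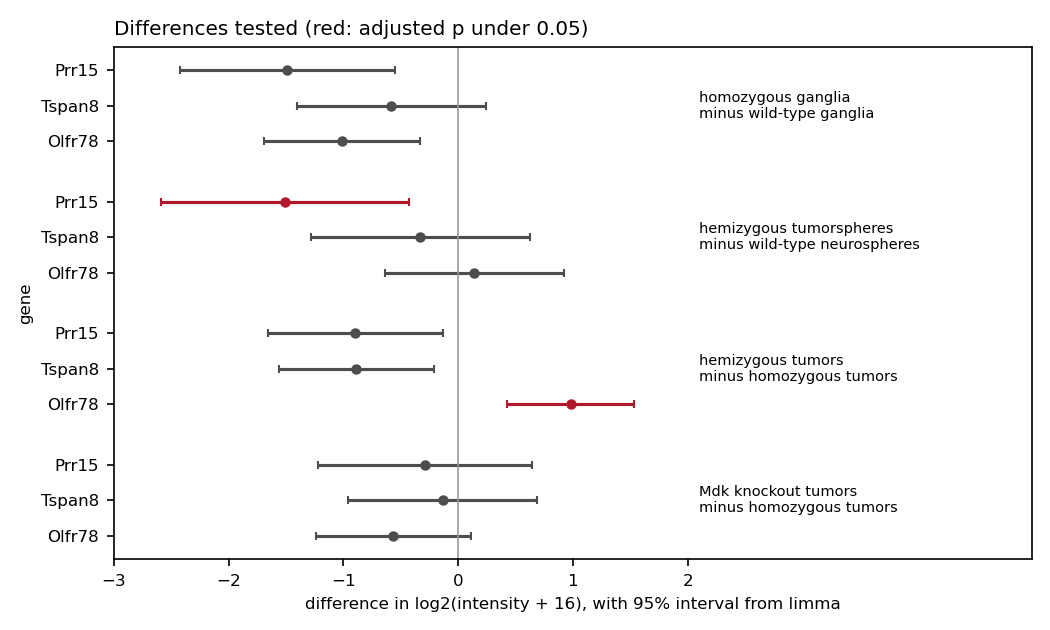
Difference in log2(intensity + 16) for each gene in the 4 comparisons that were tested, with 95% intervals from limma. Red marks an adjusted p under 0.05, which was reached by Prr15 in tumorspheres against neurospheres (-1.51) and by Olfr78 in hemizygous against homozygous tumors (0.98).

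The tetraspanin family was then set beside Tspan8. Of 30 other family members listed, 28 were on the array and 26 were tested. In homozygous tumors against wild-type ganglia 12 were lower and 2 higher, with a median difference of -0.46, where the median over all genes was -0.12. Over all genes 26.7% were lower and 23.2% higher in that comparison. In hemizygous tumors 9 were lower and 2 higher, beside 25.7% and 27% over all genes, with a median of -0.11 against -0.05 over all genes. The lower ones included Cd9, a tetraspanin of myelinating glia and many other cells, at -2.52 and -3.29 in the homozygous and hemizygous comparison, Cd151, a partner of laminin-binding integrins, at -1.99 and -2.52, and Tspan17, a regulator of the protease ADAM10, at -3.41 and -3.97. Tspan4 (1.60 and 2.71) and Tspan5 (1.36 and 1.48) were higher in both. In homozygous ganglia only Tspan17 was called, at -1.12 (adjusted p = 0.0042, limma), beside 1.06% of all genes called lower. In tumorspheres against neurospheres 6 were lower and 5 higher, beside 14.9% and 23.5% over all genes.

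Of 13 tested surface partners of tetraspanins, 6 were lower and 0 higher in homozygous tumors, beside 26.7% and 23.2% over all genes, with a median of -0.53. In hemizygous tumors 5 were lower and 1 higher, beside 25.7% and 27%, with a median of -0.54. Itga6, an integrin subunit that binds laminin, differed by -1.68 and -1.95, and Ptgfrn, a direct partner of Cd9 and Cd81, by -0.95 and -1.48. Cdh1, the epithelial cadherin, averaged 31.8 ± 6.34 in wild-type ganglia (SD, n = 4) and differed by -1.10 and -0.67. Igsf8, another direct partner, was the 1 higher in hemizygous tumors, at 1.84. In homozygous ganglia 1 was called, Ptgfrn at -0.90 (adjusted p = 0.024, limma), beside 1.06% of all genes called lower. In tumorspheres against neurospheres 7 were lower and 2 higher, beside 14.9% and 23.5% over all genes.

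For Olfr78 the odorant receptor family served as a comparison. By symbol, 38 other Olfr genes were on the array and 14 were tested, of which 3 were lower and 0 higher in homozygous tumors, beside 26.7% and 23.2% over all genes. The highest of the 38 in wild-type ganglia was Olfr64 with a mean of 31.3, and the median of their wild-type means was 6.03. Olfr558, an odorant receptor also described outside the nose, had a wild-type mean of 9.02 and was not called (-0.33). Of 11 tested genes of odorant signalling, 3 were lower and 1 higher in homozygous tumors and 3 lower and 2 higher in hemizygous tumors, shares for the lower genes near the 26.7% and 25.7% over all genes, with medians of -0.26 and -0.03. Gnal, the G protein alpha subunit that couples odorant receptors, differed by -0.73 and -1.04, and Reep1, an accessory protein of receptor transport that neurons also use in the endoplasmic reticulum, by -1.13 and -2.09. Ric8b, which assists Gnal, was higher by 1.11 and 1.06, and Pde1c, a phosphodiesterase of olfactory cilia, was higher in hemizygous tumors by 3.02. No member was called in homozygous ganglia, and 5 were higher and 0 lower in tumorspheres against neurospheres, beside 23.5% and 14.9% over all genes.

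Receptors and transporters of fatty acids and lactate, the ligands linked to Olfr78, were mostly dim. Of 6 tested, 1 was lower and 0 higher in each tumor comparison. The shares over all genes were 26.7% lower and 23.2% higher in homozygous tumors, and 25.7% and 27% in hemizygous tumors. The lower one in both was the lactate transporter Slc16a7 (-0.46 and -0.95). Medians for the list were -0.34 and -0.11, and none was called in homozygous ganglia or in culture. Genes of oxygen sensing known from glomus cells had 4 lower and 1 higher of 10 tested in homozygous tumors and 3 lower and 2 higher in hemizygous tumors. Over all genes 26.7% were lower and 23.2% higher in the first comparison and 25.7% and 27% in the second, and the medians of the list were -0.47 and 0.14. Rgs4, an inhibitor of G protein signalling, differed by -1.90 and -1.53, and Gucy1b1, a subunit of the nitric oxide receptor, by -2.23 and -2.18. None was called in homozygous ganglia, and 4 were higher and 0 lower in tumorspheres, beside 23.5% and 14.9% over all genes.

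Genes tied to leaving the cell cycle were listed because of the known expression of Prr15. Of 13 tested, 1 was lower and 2 higher in homozygous tumors, beside 26.7% and 23.2% over all genes. In hemizygous tumors 2 were lower and 1 higher, beside 25.7% and 27% over all genes. Medians of the list were 0.07 and -0.08. The lower one in homozygous tumors was Prr15l, the paralog of Prr15, at -0.69 from a wild-type mean of 37.0 ± 28.4 (SD, n = 4). Rbl1, a retinoblastoma-related repressor that proliferating cells express, was higher by 2.17 and 2.11. It was the 1 member called in homozygous ganglia, at 1.26 (adjusted p = 0.0011, limma), beside 4.02% of all genes called higher. In tumorspheres against neurospheres 4 were lower and 1 higher, beside 14.9% and 23.5% over all genes.

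Some lists of cell type markers were lower in tumors than in wild-type ganglia, as the 3 genes were, while others were mixed, higher or had none called. The summed intensity of 16 sympathetic neuron markers ran from 27970.2 to 60545 in wild-type ganglia, 26435 to 29723 in homozygous ganglia, 18551 to 20754 in homozygous tumors and 11877 to 14071 in hemizygous tumors. In homozygous tumors 9 of the 16 were lower and 2 higher than in wild-type ganglia. Over all genes 26.7% were called lower and 23.2% higher in homozygous tumors, 25.7% and 27% in hemizygous tumors, and 1.06% and 4.02% in homozygous ganglia. The summed intensity of 10 markers of Schwann and satellite glia was 10807 to 12643 in wild-type ganglia, 1358 to 1614 in homozygous tumors and 532 to 1756 in hemizygous tumors, with 9 of 10 called lower in each tumor comparison. In homozygous ganglia the glial sum was 8079 to 8359. Sums of 8 fibroblast markers were 14984 to 18066 in wild-type ganglia and 4004 to 4836 in homozygous tumors, with 6 of 8 lower. All 6 tested markers of proliferating cells were higher in tumors and in homozygous ganglia, with sums of 476 to 1291 in wild-type ganglia, 4913 to 7385 in homozygous ganglia and 10068 to 11000 in homozygous tumors. Of the remaining lists, markers of chromaffin and small intensely fluorescent cells had 4 lower and 2 higher of 8 in both tumor comparisons, and adrenal cortex 1 higher of 6 in both. Endothelium had 3 lower and 0 higher of 7 in homozygous tumors but 0 lower and 2 higher in hemizygous tumors. Macrophages had 2 lower and 2 higher of 7 in homozygous tumors and 1 lower and 3 higher in hemizygous tumors. The 2 higher endothelial genes in hemizygous tumors and the macrophage counts in homozygous tumors were near the shares over all genes. Plasma proteins of the liver had 4 lower of 4 in both, with sums of 14.2 to 35.5 in homozygous tumors, and skeletal muscle and adipocyte markers had 0 called in either. The part of these cell types in the results for the 3 genes was not tested.

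In the sphere cultures the sums rested on few genes. Neurospheres had sums of 303 to 561 for the neuron markers. Their glial sum of 5574 to 9377 was mostly Fabp7, a fatty acid binding protein of glia and progenitors, at 8578 and 4615, and the other 9 glial markers summed to 800 and 959 (Cdh19 averaged 33.7, Mal 2.85 and Foxd3 2.42). Tumorspheres had 14856 to 15038 for the neuron markers and 1335 to 2170.1 for the glial markers, of which Pmp22 gave 1035 and 1189.8. The 3 genes were low in both kinds of culture.

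Markers of epithelium, where Tspan8 is best known, summed to 67.0 to 110.1 over all 9 in wild-type ganglia and to 53.0 to 122 in tumors. Elf3 was the brightest of them in wild-type ganglia, with 21.9, 25.9, 43.3 and 50.6. Of the 5 tested, 0 were called in homozygous tumors, beside 26.7% lower and 23.2% higher over all genes. In hemizygous tumors 1 was called, beside 25.7% lower and 27% higher over all genes. This was Grhl2, which was higher by 0.69 (adjusted p = 0.015, limma). Its mean was 11.3 in wild-type ganglia, within the range of the dim level, and 26.8 in hemizygous tumors. Mesothelial markers had 3 lower and 1 higher of 6 tested in homozygous tumors, beside 26.7% and 23.2% over all genes. The higher one was Gpm6a, which neurons also express, at a mean of 77.3 in wild-type ganglia and 446 in homozygous tumors, and it made up most of the list's sum in every tumor; Msln, Krt19 and Nkain4 were the lower ones. In hemizygous tumors 1 was lower and 1 higher, beside 25.7% and 27% over all genes.

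**Figure D4:**
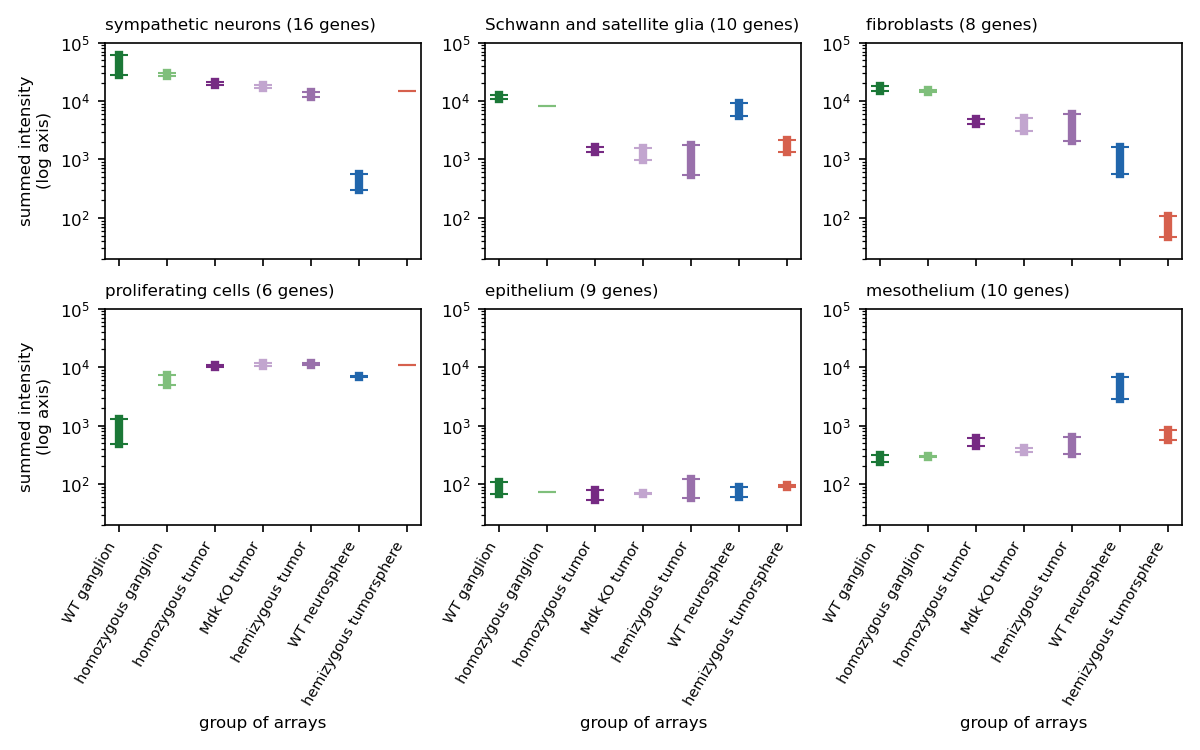
Range over the arrays of each group of the summed intensity of 6 marker lists (log axis), with the number of list members on the array in each title. The glial and fibroblast sums are lower in all tumor groups than in both ganglion groups, the proliferation sum is lowest in wild-type ganglia, and the epithelial sum stays between 53.0 and 122 throughout.

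RNA quality also differed between the groups. The ratio of the beta-actin control probe sets at the 3′ end over the 5′ end, which rises when RNA is degraded or cut short in amplification, was 4.36 to 9.14 in wild-type ganglia and 4.02 to 4.68 in homozygous ganglia. It was 1.96 to 3.28 over the 10 tumors. The same ratio for GAPDH was 2.56 to 4.13 in wild-type ganglia and 2.71 to 4.49 in tumors. In culture, where Prr15 was called, the beta-actin ratio was 3.78 to 7.77 in neurospheres and 2.34 to 2.64 in tumorspheres, and the GAPDH ratio was 3.37 to 11.5 and 2.68 to 3.13. The part of RNA quality in the results was not tested.

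The genes whose pattern over all 20 arrays was most like that of each of the 3 were taken by Pearson's r of log2(intensity + 16), as a description. The points share groups, so a high r reflects mainly the gap between ganglia and the other samples. Prr15 was most like Cntn3 (r = 0.994), a contactin of neurons, followed by Crbn (0.987), the substrate receptor cereblon, Kcnip4 (0.984), Ralyl (0.983) and Grm7 (0.983), a metabotropic glutamate receptor. Tspan8 was most like Htr3b (0.984), a subunit of the serotonin-gated channel, then Mal (0.983), a proteolipid of myelin and apical membranes, Art3 (0.981), Sbspon (0.981) and Entpd2 (0.98), an ectonucleotidase. Olfr78 was most like Ablim1 (0.969), an actin-binding protein, then Cmbl (0.96), Mgam (0.96), Hspb8 (0.96) and Prex2 (0.959). The number of genes with r over 0.95 was 96 for Prr15, 63 for Tspan8 and 13 for Olfr78.

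Cntn3 averaged 604 ± 195 (SD, n = 4) in ganglia of wild-type mice, 257 ± 81.6 (SD, n = 2) in those of homozygous mice and 16.7 ± 7.52 (SD, n = 4) in homozygous tumors. Htr3b averaged 243 ± 26.1, 167 ± 30.5 and 11.8 ± 2.16 in the same groups, and Ablim1 averaged 369 ± 48.6, 252 ± 41.3 and 42.3 ± 5.45. Each thus kept a clear level in homozygous ganglia and a low one in tumors. On the 6 arrays that the choice did not use (homozygous ganglia and both kinds of culture), the closest genes were different ones: Atp5h, Lpar1 and Xaf1 for Prr15, Slc43a3, Lpcat2 and Serpinf1 for Tspan8, and Pdlim2, Tmem204 and Ncf4 for Olfr78. On so few arrays 486, 536 and 637 genes had r over 0.95.

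Among themselves the 3 genes had r of 0.949 (Prr15 and Tspan8), 0.91 (Prr15 and Olfr78) and 0.933 (Tspan8 and Olfr78) over the 20 arrays. Other genes were closer: Tspan8 was the 106th closest gene to Prr15, and Olfr78 the 317th closest to Prr15 and the 147th closest to Tspan8. Within the 10 tumors r was 0.84 between Prr15 and Tspan8, -0.456 between Prr15 and Olfr78 and -0.319 between Tspan8 and Olfr78, values that carry the genotype difference described above. On the 6 arrays that the choice did not use, r was 0.941, 0.941 and 0.987 for the same pairs, again across ganglia and cultures. Within the 4 wild-type ganglia it was -0.702, 0.865 and -0.914. Of the 20 arrays, 14 were used to choose the genes, so the r over all 20 supports nothing beyond the choice.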

How the data were processed

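The authors deposited 1 linear intensity per probe set and array. Per the labels, cRNA was made from 40 ng of frozen tissue's total RNA by a two-cycle amplification for Affymetrix arrays. The mean of each deposited intensity column after trimming 2% at each end was 100, so the authors had scaled the arrays; the software is not given in the sources used. Values were analysed as log2(intensity + 16). Symbols came from the platform annotation, updated through RefSeq (GRCm38.p6; 34741 of 34945 probe sets matched). The brightest probe set stood for a gene. Genes above the 40th percentile of their array on at least 2 arrays were tested (15140), with all 20 arrays in 1 limma model of 7 group means (limma 3.58.1, R 4.3.3; 13 residual degrees of freedom; two-sided; Benjamini-Hochberg adjustment over all genes tested; threshold 0.05). The steps were tested on simulated data. The text names the 3 genes with all their probe sets, the 5 genes most like each over 20 arrays and the first 3 over the 6 unused arrays, and members of the gene lists. The genes and lists were chosen with earlier results of these data known; other genes named were chosen after their values were seen. Promoters are RefSeq's. Alternatives changed the scaling, pseudocount, filter, gene summary, variance model, replicate block and arrays used. Precision is limited by the number of arrays.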

Additional observations from a re-analysis of the deposited data

Results flagged for a closer look

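Of 36 groups of 4 arrays examined over the 12 probe sets, 3 held an array far from the other 3 by Dixon's ratio, and chance gives about 1 in 20 such groups. All 3 lay on probe sets other than the brightest. On the Prr15 probe set 1432613_at, wild-type ganglion 4 was lowest at 1.10, with the nearest at 4.77. On the Tspan8 probe set 1420018_s_at, hemizygous tumor 1 was highest at 1.99, with the nearest at 0.575. On the Olfr78 probe set 1421506_at, homozygous tumor 4 was highest at 25.3, with the nearest at 12.1. The first 2 of these values lie under the dim level of 8.57 to 15.8.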

How the results depend on the processing

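Under the alternatives run, 5 values changed sign, all of differences that were not called; where 1 array was left in a group, it was assumed to vary like the others. In culture these were Olfr78 with the mean over probe sets (-0.0038) and without neurosphere 2 (-0.0334), and Tspan8 without neurosphere 2 (0.0732, the top of a range from -0.732). For Mdk knockout against homozygous tumors they were Tspan8 without homozygous tumor 2 (0.186) and without knockout tumor 1 (0.525, the top of a range from -0.796). For Olfr78 in culture the range without single arrays reached 0.311. For homozygous against wild-type ganglia, Prr15 passed with median centring (-1.46), pseudocount 64 (-1.42), array weights (-1.49) and wild-type ganglia 3 and 4 only (-2.35), and without single arrays it lay between -1.82 and -1.19. Olfr78 passed with pseudocount 64 (-0.941) and ganglia 3 and 4 only (-1.17), with a range of -1.32 to -0.705 without single arrays, and Tspan8 passed with the mean over probe sets (-1.05). For hemizygous against homozygous tumors, Olfr78 lost its call with pseudocount 1 (1.38), pseudocount 64 (0.529) and the mean over probe sets (0.406), with a range of 0.687 to 1.22 without single arrays. Prr15 passed there with pseudocount 1 (-2.18), array weights (-0.896) and only the compared arrays (-0.896). For tumorspheres against neurospheres, Prr15 lost its call with pseudocount 64 (-0.6), with a range of -2.07 to -0.958 without single arrays. The cause was not tested.

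The untested differences from wild-type ganglia moved with the pseudocount, since tumor values lie near it. With pseudocount 1, homozygous, Mdk knockout and hemizygous tumors differed by -5.95, -6.46 and -8.14 for Prr15, the Mdk knockout and hemizygous tumors by -5.94 and -7.09 for Tspan8, and the homozygous and Mdk knockout tumors by -5.53 and -6.72 for Olfr78. With pseudocount 64 the values in the order homozygous, Mdk knockout and hemizygous were -4.18, -4.31 and -4.52 for Prr15, -4.38, -4.45 and -4.82 for Tspan8 and -3.59, -3.8 and -3.06 for Olfr78. With the mean over probe sets they were -1.92, -2.01 and -2.21, then -2.92, -3.04 and -3.23, then -2.26, -2.37 and -1.85. Against wild-type ganglia 1 and 2 only, Prr15 gave -4.41, -4.7 and -5.3, and against 3 and 4 only -6.14, -6.43 and -7.04. Without single arrays, Mdk knockout tumors ranged from -6.04 to -4.72 for Tspan8.

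Deviations of samples with the same replicate number correlated between -0.309 and 0.255, and over 0.1 for 3 of 4 numbers in homozygous tumors with wild-type ganglia (0.0668, 0.255, 0.206 and 0.138). In no comparison with 3 or more pairs did all exceed 0.1, so the numbers are not taken to pair the samples. With a replicate block Tspan8 passed for hemizygous against homozygous tumors (-0.888, adjusted p = 0.027, limma), and no other call changed. The genes called in homozygous against wild-type ganglia went from 770 to 435 with the block and 142 with only the compared arrays; for hemizygous against homozygous tumors 946 became 2053 with only the compared arrays, and for Mdk knockout tumors 1 became 3. Of 912 counts of list members under the alternatives, 871 stayed within 1.5 times the count reported and 41 did not. Intensities near the dim level limit every value under about 16.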
